A study of Capra hircus with 6 samples.

Results

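Regions listed in a comparison of open chromatin between dry period and lactation libraries of goat mammary epithelial cells were examined around 10 genes. These genes mark fat cells or act in the breakdown of stored fat: *ADIPOQ*, *LEP*, *PNPLA2*, *LIPE*, *PLIN1*, *CIDEC*, *AQP7*, *GPD1*, *FABP4* and *CEBPA*. The members are every listed region whose centre lies inside one of these genes or within 50000 bp of an end of it, whatever its false discovery rate (FDR), which gave 60 of the 30714 regions in the authors' deposited table. The genes share a function and were chosen with earlier results of these data known; the regions were then taken by position alone.

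Open chromatin was assayed by ATAC-seq, which uses the Tn5 transposase to cut and tag DNA free of nucleosomes, on 50000 cells per library. The cells are labelled mammary epithelial cells of *Capra hircus*, and 3 libraries were labelled dry period (numbers 1, 2 and 3) and 3 lactation period (numbers 1, 2 and 5). The labels give no breed, age, stage within a period or animal for any library, so the spread behind the authors' p-values may be technical. The table holds 1 set of values per region for the whole comparison and no value per library. Depth is therefore unknown, and neither the purity of the epithelial cells nor a share of fat cells could be checked against marker genes.

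The regions carry names that begin with chip1 (set 1, 22884 regions) or chip2 (set 2, 7830 regions), and the deposited fold change is above 1 in both sets. The sets were read as the regions more open in 1 period and in the other. Neither the header nor the labels say which set belongs to which period, so directions are given by set. Every listed region has a p under 0.001. A region is said here to pass when its deposited FDR is under 0.05.

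Fat cells store triglyceride in a droplet coated with perilipin 1, and in the resting cell that coat holds the lipases back. When the cell is stimulated to release fat, PNPLA2 removes the first fatty acid, hormone-sensitive lipase (LIPE) the next, and glycerol leaves through AQP7. Milk ducts and alveoli grow within a pad of fat whose cells shrink as the gland fills with alveoli and refill after weaning. C/EBP-alpha, encoded by *CEBPA*, is a master factor of fat cell differentiation and is also present in other cells, mammary epithelium among them.

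Listed regions were found near all 10 genes, as they were near 79.7% of coding genes. Of the 60 regions, 50 belonged to set 1 (83.3%, with a 95% Wilson interval for counting error of 72.0% to 90.7%) and 10 to set 2. Set 1 makes up 74.5% of all listed regions. The Wilson interval treats regions that share a window as independent. The 23 regions around *PNPLA2* were all in set 1. Without them 27 of 37 regions (73.0%, 57.0% to 84.6%) were in set 1, which is about the share in the whole table. An FDR under 0.05 was reached by 22 of the 60 regions (36.7%), against 27.8% of all listed regions, and 20 of those 22 were in set 1, against 91.5% of all regions that passed. Within set 1 the count was 20 of 50, against 34.2% over the whole set, and within set 2 it was 2 of 10, against 9.23%. *GPD1* gave the region closest under the threshold in the authors' deposited table (FDR = 0.0435) and *ADIPOQ* the region closest above it (FDR = 0.0535).

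By gene, 7 of the 10 had a region that passed within 50000 bp, beside 51.4% of 19063 protein-coding genes on numbered chromosomes. For set 1 the count was 6 of 10 genes, beside 48.9%, and for set 2 it was 2 of 10, *ADIPOQ* and *AQP7*, beside 5.06%. A set 2 region was listed, whether or not it passed, near 8 of the 10 genes, beside 37.6% of coding genes. *PNPLA2* and *GPD1* had none. Only 9.23% of all listed set 2 regions passed, so a set 2 listing alone is weak evidence of a difference. No test was made of these shares, since the genes were chosen with results of this table known.

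**Figure D1:**
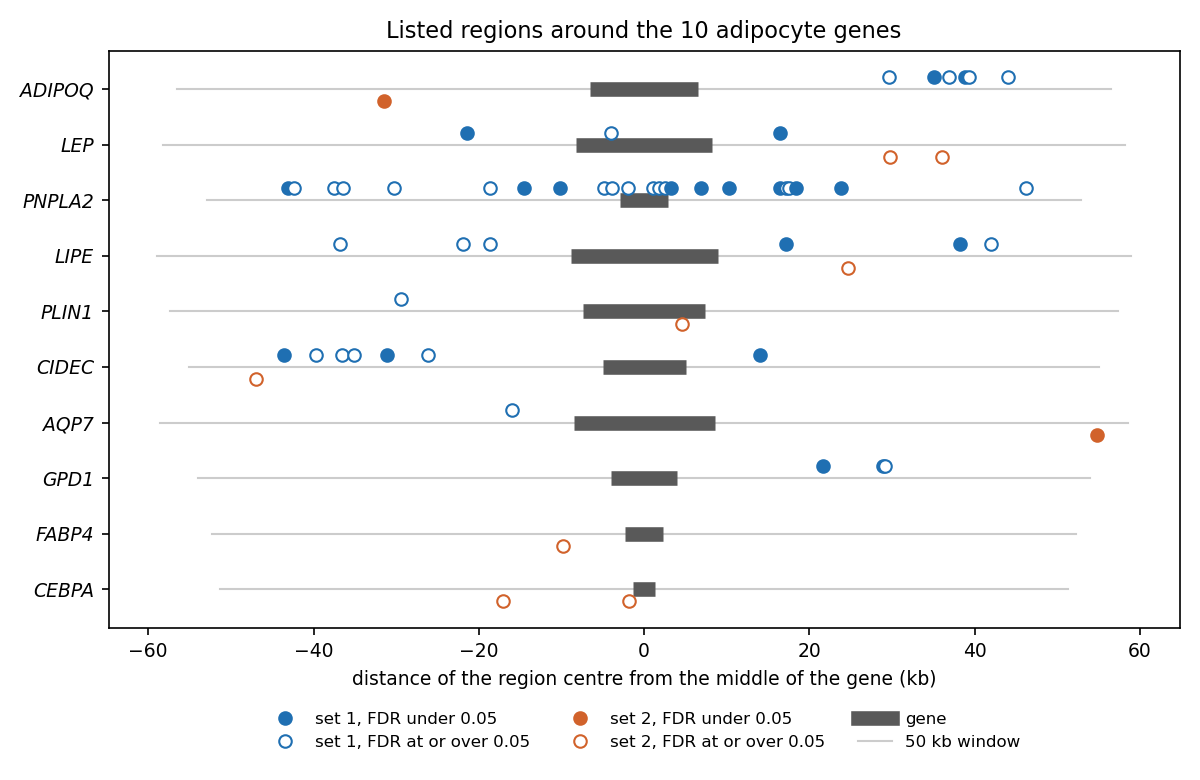
Positions of the 60 listed regions around the 10 genes, as the distance in kb of each region's centre from the middle of the gene; grey bars are genes, thin lines the windows, blue points set 1 (drawn above the line), orange points set 2 (below), and filled points have an FDR under 0.05. No filled point lies over a gene, and the 23 regions of *PNPLA2* spread over its whole window.

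None of the 22 regions that passed lay inside a member gene, so 0 of 10 genes held one, beside 16.5% of coding genes. No test was made of this count in so few genes. Of the 22 regions that passed, 11 lay inside another coding gene and 11 between coding genes. Over all 60 listed regions, 6 lay inside the member gene (4 in *PNPLA2* and 1 each in *LEP* and *PLIN1*, so 3 of 10 genes beside 39.7% of coding genes), 28 inside another coding gene and 26 in none. With a margin of 3000 bp, *CEBPA* joined these genes, to make 4 of 10 beside 50.2%. The members are 2623 to 17815 bp long, and these shares of coding genes are not matched for gene length. In 17 of the 60 cases (28.3%) the member was the nearest coding gene, compared with 35.4% of all pairs of a coding gene and a listed region in its window. The split between the sets is given by this position, with no test made of it. Of the 17 regions nearest to a member, 10 were in set 1 and 7 in set 2, whereas of the 43 nearest to another gene, 40 were in set 1 and 3 in set 2. For the 12 regions nearest to a member other than *PNPLA2* the split was 5 to 7. The 43 still include regions of the *PNPLA2* window, all in set 1. The split also varied with gene crowding over all listed regions on numbered chromosomes. With 1 to 2 coding genes within 50000 bp, 10950 regions were in set 1 and 4900 in set 2. With 10 or more, 624 were in set 1 and 17 in set 2. The part of crowding in the member split was not tested. Of the 17 member regions nearest to a member, 4 passed (23.5%, beside 27.8% of all listed regions): 2 at *LEP*, 1 at *ADIPOQ* and 1 at *PNPLA2*. Of these 4, 3 were in set 1 and 1, at *ADIPOQ*, in set 2.

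The adipokine genes had passing regions to which they were the nearest coding gene. *ADIPOQ*, on chromosome 1, encodes adiponectin, a hormone made almost solely by fat cells. It had 7 listed regions. The smallest FDR of all 60 member regions belonged to its single set 2 region, 24945 bp from the gene at 80067401 to 80068200, outside coding genes. That region is 800 bp wide, the widest of the 60, with a fold change of 1.87 per the authors' deposited table (p = 3.15e-12, FDR = 8.13e-07). By p it ranked 23 of the 7830 set 2 regions, although its fold change lies below the set 2 median of 3.59. *ADIPOQ* is the coding gene nearest to it.

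On the other side of *ADIPOQ* all 6 listed regions were in set 1, and all lay in neighbouring genes. Inside *RFC4*, a subunit of the clamp loader of DNA replication, there were 5 of them, and inside *EIF4A2*, an RNA helicase of translation initiation, there was 1. The steepest of the 60 member regions was here: at 80137901 to 80138300 the authors' deposited table gave a fold change of 7.003 (FDR = 0.0265). A neighbour at 80134001 to 80134600 had 3.80 per the authors' deposited table (FDR = 0.00947). The other 4, with deposited fold changes from 2.25 to 3.06, did not pass. The *ADIPOQ* window therefore held passing regions of both sets on opposite sides of the gene.

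*LEP*, on chromosome 4, encodes leptin, the fat cell hormone that reports energy stores to the brain. It is the nearest coding gene to all 5 of its listed regions, and 1 other coding gene reaches into its window. The regions changed set along the chromosome. At 27652501 to 27652800, 13265 bp from the gene, a set 1 region had a fold change of 3.04 per the authors' deposited table (FDR = 0.0212). A further set 1 region inside the gene, at 27670001 to 27670300 and 4235 bp from its nearer end, had 2.58 per the authors' deposited table and did not pass (FDR = 0.0940). The strongest lay 8216 bp beyond the other end, at 27690301 to 27690700, with 3.83 per the authors' deposited table (p = 2.14e-07, FDR = 0.000981). Farther out on that side stood 2 set 2 regions, 21616 and 27866 bp from the gene, at fold changes of 1.53 and 1.56 per the authors' deposited table, neither of which passed (FDR = 0.469 and 0.267).

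The lipase genes differed from each other in how many regions they had. *PNPLA2*, on chromosome 29, encodes adipose triglyceride lipase, which starts lipolysis in fat cells and is made in many other tissues. It had 23 listed regions, all in set 1, and 9 of them passed. As many or more listed regions were found at 0.477% of coding genes, and as many or more passing regions at 0.713%; the median coding gene had 3 listed. The *PNPLA2* window is also crowded with genes. It holds 12 other coding genes, against a median of 3, and among the 69 genes with exactly 12 neighbours the median was 12 listed regions and 13.04% had 23 or more. The part of gene crowding in the count was not tested further.

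At *PNPLA2* itself there were 4 regions inside the gene, with fold changes of 1.31, 1.24, 1.44 and 1.45 per the authors' deposited table, and none of these passed (lowest FDR = 0.0882). The region that passed lay just outside, 363 bp from the end, at 45704301 to 45704600, with 1.58 per the authors' deposited table (FDR = 0.0136). It was the only passing region of any member within 3000 bp of its gene. That is 1 of 10 genes, beside 22.4% of coding genes, a share not matched for gene length. Other genes lay closer to the remaining 18 regions of this window. The lowest FDR there was at 45724701 to 45725400, 94 bp from *CEND1*, a gene of neuronal differentiation, with a fold change of 2.06 per the authors' deposited table (FDR = 2.11e-05). Next came a region 94 bp from *CLCF1*, a cytokine gene, with 1.94 per the authors' deposited table (FDR = 9.6e-05). Inside *CD151*, a tetraspanin that binds integrins, a region had 1.43 per the authors' deposited table (FDR = 0.00666), and inside *RPLP2*, a ribosomal stalk protein, 1.67 (FDR = 0.0425). Close to *PIDD1*, a gene of the p53 death pathway, regions 148 and 12 bp away had 1.72 (FDR = 0.00224) and 1.46 (FDR = 0.0245) per the authors' deposited table. The remaining passing regions had 1.80 inside *SLC25A22*, a mitochondrial glutamate carrier (FDR = 0.0256), and 2.22 at 378 bp from *CD151* (FDR = 0.0418), both per the authors' deposited table. Inside *CRACR2B*, 1985 and 1035 bp from *PNPLA2*, were 2 regions that did not pass, at 1.52 (FDR = 0.0769) and 1.91 (FDR = 0.191) per the authors' deposited table. Genes on both sides of *PNPLA2* thus had set 1 regions.

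The *PNPLA2* regions had small fold changes and lay close to gene ends. Their median fold change was 1.67, ranging from 1.23 to 2.82 per the authors' deposited table, and 21 of 23 lay below the median of all set 1 regions, 2.39. Among set 1 regions of the other members 11 of 27 did. Centres within 1000 bp of an end of some coding gene numbered 14 of 23 at *PNPLA2* (60.9%), compared with 5 of 37 at the other members (13.5%) and 15.1% of all listed regions on numbered chromosomes. A window with 12 other coding genes has more gene ends to lie near. Windows as crowded were not compared, so this share may belong to the window and not to its regions. Set 1 regions with 10 or more coding genes within 50000 bp had a median fold change of 2.195 over the whole table (624 regions, the 23 included), and those with no coding gene that near 2.74 (2083 regions).

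*LIPE*, on chromosome 18, encodes hormone-sensitive lipase and had 7 listed regions, 2 of which passed. A passing set 1 region lay 8210 bp from *LIPE* but 389 bp from *CNFN*, a gene of the cornified envelope of skin, and had a fold change of 3.98 per the authors' deposited table (FDR = 0.0415). The 2 regions with *LIPE* as their nearest coding gene, 9726 and 13026 bp away, were in set 1 and did not pass per the authors' deposited table (FDR = 0.177 and 0.110).

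**Figure D2:**
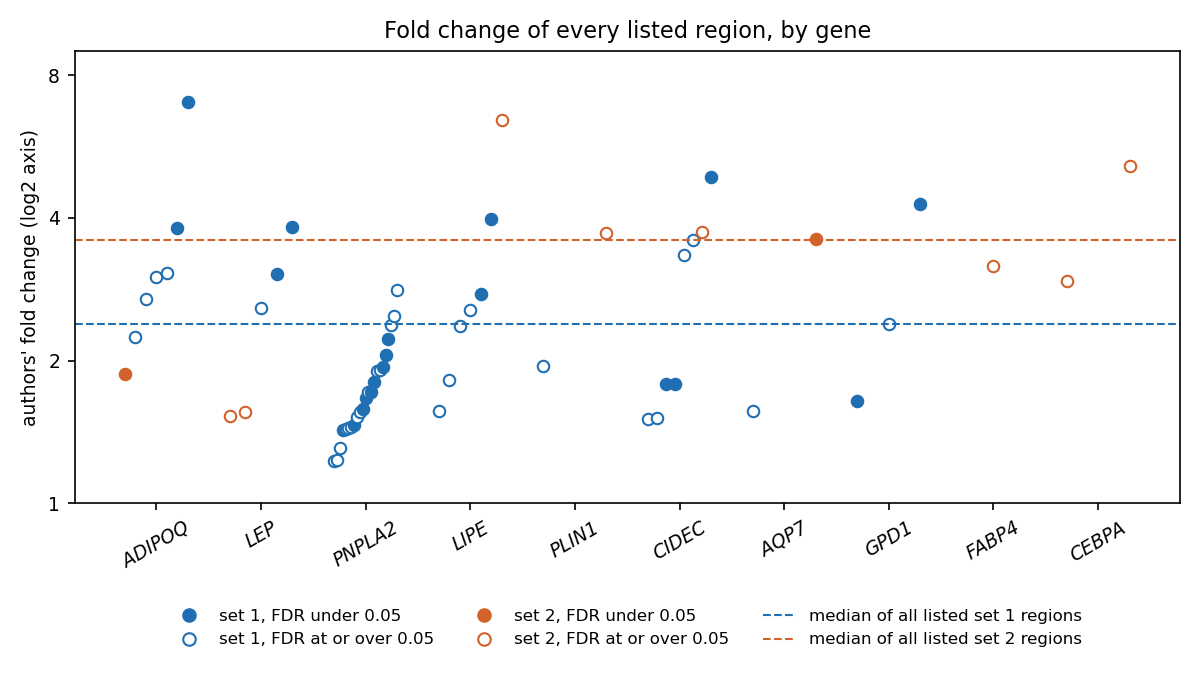
Fold change in the authors' deposited table of each of the 60 regions (log2 axis), by gene, with set 1 in blue, set 2 in orange and filled points for an FDR under 0.05; dashed lines are the medians of all listed regions of set 1 (2.39) and set 2 (3.59). Points within a gene are spread sideways in order of fold change, and those of *PNPLA2* run from 1.23 to 2.82.

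The droplet coat genes were the nearest coding gene to no passing region. *PLIN1*, on chromosome 21, had 2 listed regions and neither passed. Inside the gene, 2785 bp from an end at 20386201 to 20386500, a set 2 region had a fold change of 3.71 per the authors' deposited table (FDR = 0.158). It was the only listed set 2 region inside any of the 10 genes. The other, in set 1, lay 22002 bp away and 557 bp from *KIF7*, a kinesin of hedgehog signalling, with 1.95 per the authors' deposited table (FDR = 0.184). The nearest passing region was 75415 bp from *PLIN1*.

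*CIDEC*, on chromosome 22, encodes a protein that fuses small droplets into the large droplet of white fat cells. It had 8 listed regions, 3 of which passed, but each of the 8 lay inside a neighbouring gene. In *IL17RC*, an interleukin 17 receptor chain expressed in epithelium, there were 4. The strongest of these, at 16662401 to 16663000, had a fold change of 1.79 per the authors' deposited table (p = 4.83e-09, FDR = 5.63e-05). A region in *CRELD1*, at 16650001 to 16650300, had 4.89 per the authors' deposited table (FDR = 0.0196), and one in *RPUSD3*, 8963 bp from *CIDEC*, had 1.79 (FDR = 0.0265). All 3 were in set 1. The 1 set 2 region, in *CRELD1*, had the highest FDR of the 60 per the authors' deposited table (0.850).

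Genes of glycerol and fatty acid handling had 1 to 3 regions each. *AQP7*, on chromosome 8, is the channel by which glycerol leaves fat cells. Its passing region belonged to set 2 and was the farthest from its gene among the 60: it lay 46246 bp from *AQP7*, at 74989001 to 74989300, and 1770 bp from *AQP3*, a glycerol and water channel of epithelia. The authors' deposited table gave it a fold change of 3.61 (p = 2.63e-06, FDR = 0.0303). A set 1 region 7441 bp from *AQP7* had 1.56 per the authors' deposited table and did not pass (FDR = 0.231).

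*GPD1*, on chromosome 5, makes the glycerol 3-phosphate to which fatty acids are joined. Its 3 listed regions were all in set 1 and all inside *ASIC1*, an acid-sensing ion channel gene. In the authors' deposited table the region at 29467801 to 29468100 had a fold change of 4.27 (FDR = 0.0435) and that at 29475001 to 29475300 had 1.65 (FDR = 0.0253). The region of smaller fold change thus had the smaller FDR. *FABP4*, on chromosome 14, encodes the fatty acid carrier of fat cell cytoplasm. It had 1 listed region, in set 2 and 7585 bp from the gene, at a fold change of 3.17 per the authors' deposited table, far from the threshold (FDR = 0.587). The nearest passing region lay 218235 bp from *FABP4*.

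*CEBPA*, on chromosome 18, has no other coding gene in its window, and both of its listed regions were in set 2. The closer one, at 44781201 to 44781600 and 468 bp from an end of the gene, had a fold change of 5.14 per the authors' deposited table and did not pass (FDR = 0.279). The other, 15718 bp away on the same side, had 2.95 per the authors' deposited table (FDR = 0.222). All listed regions were in set 2 at *CEBPA* and *FABP4*, beside 10.4% of the coding genes with a listed region. None of the regions at either gene passed. Which end of *CEBPA* is its start was not determined, as strand is missing from the gene table. The nearest passing region was 79660 bp away and in set 1.

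The listed region closest to the gene was in set 2 at 3 of the 10 genes, *PLIN1*, *FABP4* and *CEBPA*, beside 19.2% of coding genes with a listed region in their window. None of these 3 regions passed, and no test was made of the count. Just beyond the windows the closest listed region lay 50528 bp from *CIDEC* and had a fold change of 2.13 per the authors' deposited table (set 1, FDR = 0.235).

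**Figure D3:**
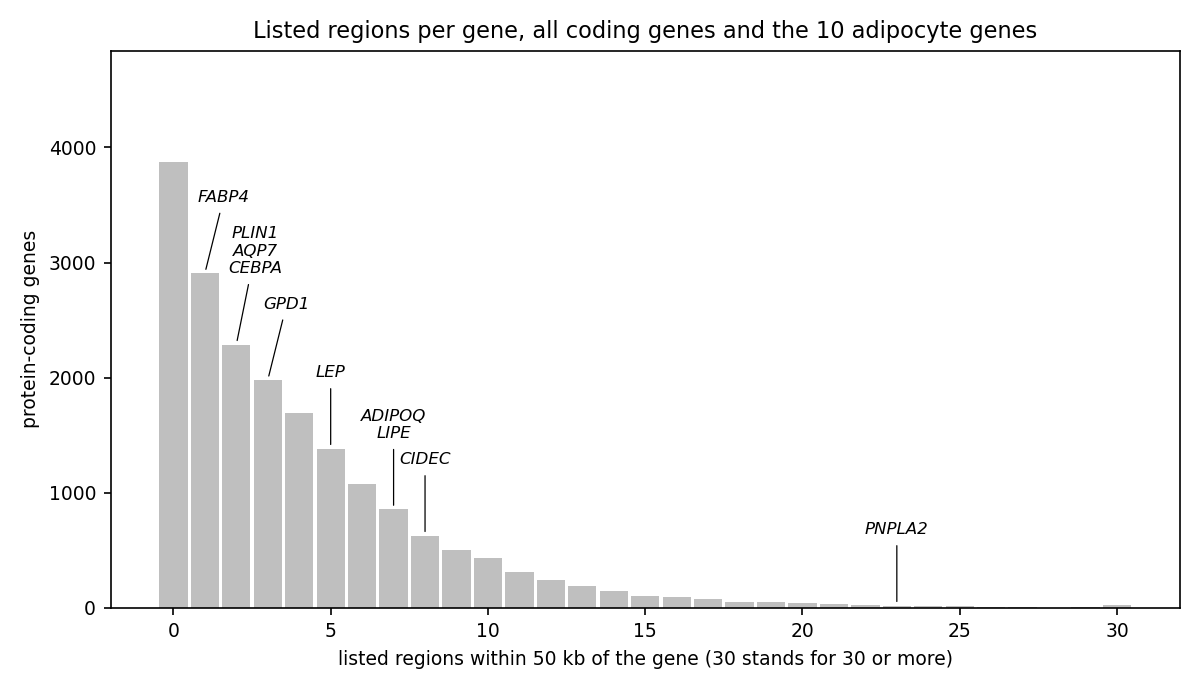
Number of protein-coding genes (vertical axis) by the number of listed regions within 50 kb (horizontal axis, 30 standing for 30 or more), with the 10 genes marked. The median gene has 3; *PNPLA2*, with 23, stands far to the right, and the other 9 have from 1 to 8.

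Across the 10 members, the number of listed regions and the number of other coding genes in the window had a Pearson r of 0.82 and a Spearman rho of 0.39. Without *PNPLA2* these were 0.35 and 0.16, so the Pearson value rests on that gene. Over all 19063 coding genes rho was 0.35. These are descriptions across genes, which share regions and are not replicates.

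Other genes of fat storage and release were taken in 6 lists. The count for each list is to be read beside the 51.4% of coding genes with a passing region. Of all passing regions, 91.5% were in set 1. Regulators of lipolysis had a passing region near 5 of 12 genes, all in set 1. *PRKACA*, the catalytic subunit of protein kinase A, had a fold change of 1.41 at its lowest-FDR region in the authors' deposited table (FDR = 0.000331), *NPR1*, a natriuretic peptide receptor, had 2.31 (FDR = 0.000972), and *G0S2*, the inhibitor of PNPLA2, had 2.15 (FDR = 0.00990). The *G0S2* region lay 1265 bp from its gene, and those of *PRKACA* and *NPR1* lay closer to other genes. No region was listed near *ABHD5*, the co-activator of PNPLA2, or *MGLL*, the last lipase of the pathway.

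Of 13 genes of the droplet and of triglyceride synthesis, 6 had a passing region, all in set 1. *AGPAT2*, an acyltransferase needed for fat cell formation, had 24 listed and 10 passing regions, the strongest 4587 bp from the gene at a fold change of 2.31 per the authors' deposited table (FDR = 8.98e-13). *DGAT1*, which makes triglyceride, had 15 listed regions and 2.54 at the strongest in the authors' deposited table (FDR = 0.00016), and *CIDEA*, a droplet protein related to CIDEC, had 1.68 (FDR = 0.000515). The nearest coding gene to the *DGAT1* region was *SCRT1*, and to the *CIDEA* region *TUBB6*. The median coding gene had 3 listed regions and 1 that passed. How crowded with genes the *AGPAT2* and *DGAT1* windows are was not examined. For fatty acid uptake the count was 5 of 9 genes, with *CAV1* and *CAV2* each counted although they share a passing region. There *ACSL1*, an acyl-CoA synthetase, led with 3.21 per the authors' deposited table (FDR = 4.69e-07), and *CAV1* and *CAV2*, which form caveolae, shared a region at 4.56 (FDR = 0.00224). The *ACSL1* region was nearer to *CENPU*, 9682 bp from *ACSL1*, and the shared region was nearer to *CAV2* than to *CAV1*. No region was listed near *LPL*, *CD36* or *FABP5*.

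Glycerol and glucose supply had a passing region near 4 of 7 genes, 3 in set 1 and 1 in set 2, the last being the *AQP3* region already given for *AQP7*. In the authors' deposited table *GPD1L* had a fold change of 1.80 (FDR = 0.000154), *SLC2A4*, the insulin-regulated glucose transporter, 1.94 (FDR = 0.000508) and *AQP9*, a glycerol channel, 1.79 (FDR = 0.00610). These regions lay 24958, 47707 and 20771 bp from the genes, and that of *SLC2A4* was nearest to another coding gene. Adipokines and receptors reached 5 of 7. Inside *CFD*, the gene of adipsin, a region had 1.61 per the authors' deposited table (FDR = 0.000111). Inside *ADIPOR2*, an adiponectin receptor, the value was 1.73 per the authors' deposited table (FDR = 0.00122), and inside *CDH13*, a cadherin that binds adiponectin, 5.11 (FDR = 0.00184). All of these are set 1 regions; *CDH13* also had 1 passing region in set 2.

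Among adipogenic transcription factors, 6 of 11 genes had a passing region. *EBF1*, a factor of B cell and fat cell development, had 3, of which 2 were in set 2, and the strongest, inside the gene, had a fold change of 3.77 per the authors' deposited table (set 2, FDR = 0.000645). *PPARG*, the nuclear receptor that drives fat cell formation, had a set 1 region 2365 bp from the gene with 1.58 per the authors' deposited table (FDR = 0.00764). *CEBPD*, an early factor of fat cell formation, had a set 1 region 40821 bp away with 3.54 per the authors' deposited table (FDR = 0.00872). *KLF15* had no listed region. Over these 6 lists and the 2 described under other observations, 35 of 69 matched genes (50.7%) had a passing region, beside 51.4% of coding genes, and 3 (4.35%) had 1 in set 2, beside 5.06%. In these counts *CAV1* and *CAV2*, which share a passing region, were each counted.

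**Figure D4:**
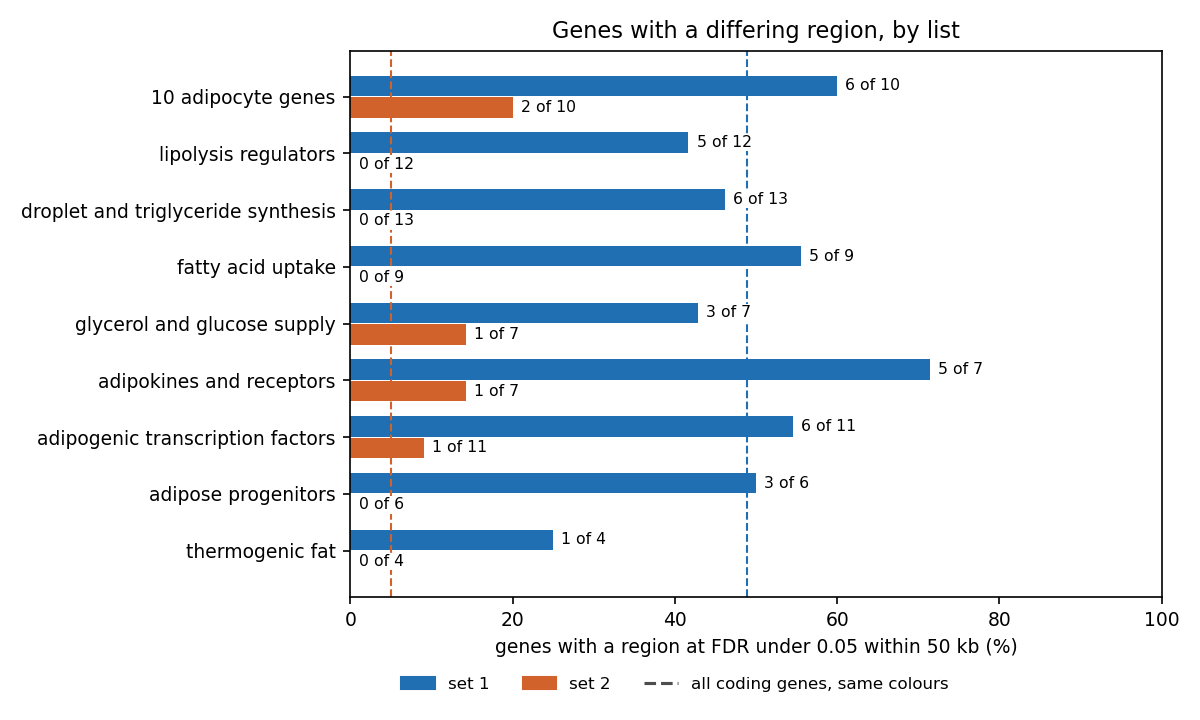
Percent of genes in each list with a region at FDR under 0.05 within 50 kb, by set, with the count of genes at each bar; dashed lines are the shares of all coding genes, 48.9% for set 1 and 5.06% for set 2. The 10 adipocyte genes stand at 6 of 10 for set 1 and 2 of 10 for set 2.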

How the data were processed

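The authors deposited 1 table of regions from the comparison of 3 dry period and 3 lactation ATAC-seq libraries. Per the submitters' processing notes, Bowtie2 2.2.5 and MACS2 were used, with no role given; for the program behind the table, the build, and the handling of duplicates and Tn5 offsets: not given in the sources used here. Per the file headers, the table holds position, width in bp (another unit than the rest), a signal score, a linear fold change (a ratio), a p-value and a Benjamini-Hochberg FDR. The deposited score was not used.

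Sequence names were read as goat chromosomes 1 to 29 and matched to a RefSeq gene table of ARS1.2, of which no coordinate is printed. On 29 of 29 chromosomes, the share of regions 1000 bp or less from a gene end was higher with that chromosome's genes than with those of any other. All 10 genes were matched, *FABP4* by its synonym A-FABP; of 74 other genes 69 were matched. Assignment of regions to genes was tested on simulated data (Python 3.11.15, pandas 2.3.3). Members and lists were chosen with earlier results of these data known. Text names every member, each of its regions inside or within 3000 bp or under an FDR of 0.05, and up to 3 genes per list by FDR. A result at 1 locus is not reported here. No value per library exists in the table used, so no test across libraries was made; calls are the authors' FDR at 0.05. Windows of 10000 and 100000 bp, FDR limits of 0.01 and 0.10, 1 bp overlap, and nearest genes alone were tried.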

Additional observations from a re-analysis of the deposited data

How the results depend on the processing

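Counts followed the window and the way a region is tied to a gene. The 60 listed regions became 19 with a window of 10000 bp, 91 with 100000 bp and 17 when the member had to be the nearest coding gene. The 22 that passed became 7 with 10000 bp, 9 at an FDR under 0.01 and 4 with the nearest gene. Genes with a passing region went from 7 to 4 with 10000 bp and to 3 with the nearest gene, *ADIPOQ*, *LEP* and *PNPLA2*. The set 1 share was 58.8% for the nearest gene and 90.9% for passing regions. The median fold change, 2.01 beside 2.63 for all listed regions, was 1.72 with 10000 bp. By set the member medians were 1.92 (set 1) and 3.39 (set 2), beside 2.39 and 3.59 for all listed regions. Leaving out *PNPLA2*, an alternative chosen after seeing the data, gave 37 listed and 13 passing regions and a median of 2.77. The other 14 values are not called stable here, as some of them also shifted. The set 1 share was 73.0% without *PNPLA2*. Passing regions numbered 32 at an FDR under 0.10 and 31 with 100000 bp. Genes with a passing region numbered 5 at an FDR under 0.01 and 9 with 100000 bp. No paired analysis was possible because the table has no value per library, and for the same reason no library could be left out. Depth per region is unknown.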

Other observations

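Lists for other cell states of fat were also counted. Among 6 genes of adipose progenitors, the stromal cells from which fat cells form, 3 had a region with an FDR under 0.05 within 50000 bp. All such regions were in set 1. Over all coding genes the share was 51.4%, the figure to set beside this list and the next. *PDGFRB*, a receptor of perivascular cells, had a fold change of 1.44 per the authors' deposited table (5000 bp from the gene, FDR = 0.000957). *PI16* had 1.58 per the authors' deposited table (FDR = 0.00662), from a region nearer to *MTCH1*, and *CD34* had 3.94 at 9932 bp (FDR = 0.0193). No region was listed near *DPP4*. Of 4 matched genes of thermogenic fat, 1 had a passing region: *PRDM16*, the factor of brown fat identity, with a set 1 fold change of 2.51 per the authors' deposited table (734 bp from the gene, FDR = 0.0306). *PRDM16* also had 5 listed set 2 regions, none of which passed, and *PPARGC1A* had no listed region.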
